A study of Mus musculus with 6 samples.

Results

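Genes for the proteins of the primary (azurophil) granule of early granulocytes were followed in mouse granulocyte-macrophage progenitors by bulk RNA-seq. Members were taken by gene symbol and are Mpo, Elane, Prtn3, Ctsg, Ctsc, Serpinb1a and Srgn, which make up 7 of the 34199 genes in the count tables. The cells (iGMPs) came from C57Bl/6 Lys-GFP bone marrow, which carries GFP in the lysozyme gene, and were held in self-renewal by HOXA9 fused to the estrogen receptor ligand-binding domain and by stem cell factor. CAF-1 OFF cells kept estradiol at 150 ng/ml and received 500 µM IPTG for 24 h, which turned on a lentiviral short hairpin RNA against Chaf1b, a subunit gene of the histone chaperone CAF-1. Control cells were treated with IPTG for the same time in estradiol; the study used clonal lines with a control vector, but the labels give neither the IPTG dose nor the clone. HOXA9 OFF cells were washed with PBS and cultured without estradiol for 24 h, and the labels do not say which vector they carried or whether IPTG was present. Each group had 2 libraries. The study describes independent sub-clones for RNA-seq at a later time, but whether these 24 h libraries came from separate cultures or clones is not stated, so p-values measure only the spread between these samples, which may be technical.

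Primary granules are the first to form, at the promyelocyte stage, and hold antimicrobial proteins that are made early and then stored. Mpo encodes myeloperoxidase, a heme enzyme that makes hypochlorous acid. Elane, Prtn3 and Ctsg encode the serine proteases neutrophil elastase, proteinase 3 and cathepsin G, which are packed as active enzymes. Ctsc encodes cathepsin C (dipeptidyl peptidase I), which removes the short propeptide from those proteases. Serpinb1a encodes a cytosolic inhibitor of the same proteases, and Srgn encodes serglycin, the proteoglycan core whose charged chains hold granule proteins in place.

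Reads assigned to genes numbered 16773560 to 25170898 per library, at which 3 counts correspond to 0.118 to 0.182 CPM (counts scaled to a common library total). CPM values carry TMM scaling, with factors from 0.954 to 1.03. The targeted gene Chaf1b had 89.95 and 105 CPM in the control libraries, 17.8 and 12.1 with CAF-1 OFF and 64.6 and 61.4 with HOXA9 OFF. Its log2 fold change from control to CAF-1 OFF was -2.71 ± 0.20 (SE throughout, FDR 0.0198 by the quasi-likelihood test of edgeR), a call of lower, and 3 of the 6 fits without a library lost that call. Of the progenitor markers, Kit was at 709.5 and 542 CPM in control, Cd34 at 1805 and 1797 CPM and Flt3 at 237 and 329 CPM, whereas Cd3e and Ncr1 of the lymphoid list were at 0 in every library. A change in these bulk libraries can be fewer cells of a type or less RNA per cell, which cannot be told apart.

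All 7 members passed the filter on low counts, and together they were already a visible part of the transcriptome in control cells. They took 1.47% and 1.16% of all gene counts in control, 1.68% and 1.56% in CAF-1 OFF and 1.63% and 1.33% in HOXA9 OFF. Both CAF-1 OFF libraries lay above both controls, while HOXA9 OFF overlapped control. Mpo alone supplied 36.5% to 50% of the members' counts, and it was the most abundant gene of the whole library in every library but control 2, where it ranked second by count.

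Per kilobase of annotated exon, Ctsg stood highest in control, at 3206 and 3269 CPM per kilobase, and Mpo followed at 1200 to 1880. Serpinb1a at 781 to 860 and Prtn3 at 601 to 808 overlapped in their spread. Srgn at 443 to 534 and Elane at 308 to 497 overlapped too. Ctsc was far lower, at 19.7 to 20.4 CPM per kilobase. With these lengths, the order at the top could not be separated in HOXA9 OFF, because Mpo at 1949 to 2496 spanned Ctsg at 1980 to 2073. With the longest transcript as length, Mpo at 2427 to 3108 lay above Ctsg in both HOXA9 OFF libraries. That length also placed Prtn3 at 1191 ± 248 (SD, n = 2) and so above Serpinb1a at 832 ± 56.2 in control. Srgn at 563 to 679 then no longer overlapped Elane at 308 to 497 in control.

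HOXA9 OFF was the reference for normal differentiation, and its comparison with control asked which members respond to loss of HOXA9 activity within 24 h. Of 7 members, 1 rose (Ctsc) and 1 fell (Ctsg). A call needed a change of at least 1.5-fold and a false discovery rate (FDR) under 0.05 over 12460 genes, and 22% of those genes were called, 13% higher and 8.97% lower. The share of members called was therefore near that of all genes. The members' median log2 fold change was 0.53, against -0.003 over all genes, and 6 of 7 values were positive. CAF-1 OFF asked the same for loss of CAF-1. There, 0 of 7 members were called by edgeR, beside a background of 0.0321% of genes (4 of 12460). At an unadjusted p under 0.05 there were 3 members (Mpo, Elane and Ctsc) and 1330 genes in all, and DESeq2 and the edgeR exact test called 0 members as well. With no filter on low counts edgeR called 1 member (Elane) and 378 of 19883 genes (1.9%). The members' median was 0.24, against -0.004 over all genes. Set against HOXA9 OFF, CAF-1 OFF had 1 member called higher (Ctsg) and 1 lower (Ctsc), where 22.1% of genes were called, 9.56% higher and 12.6% lower. CAF-1 OFF and HOXA9 OFF were compared with the same control libraries, so their values are given side by side only.

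**Figure D1:**
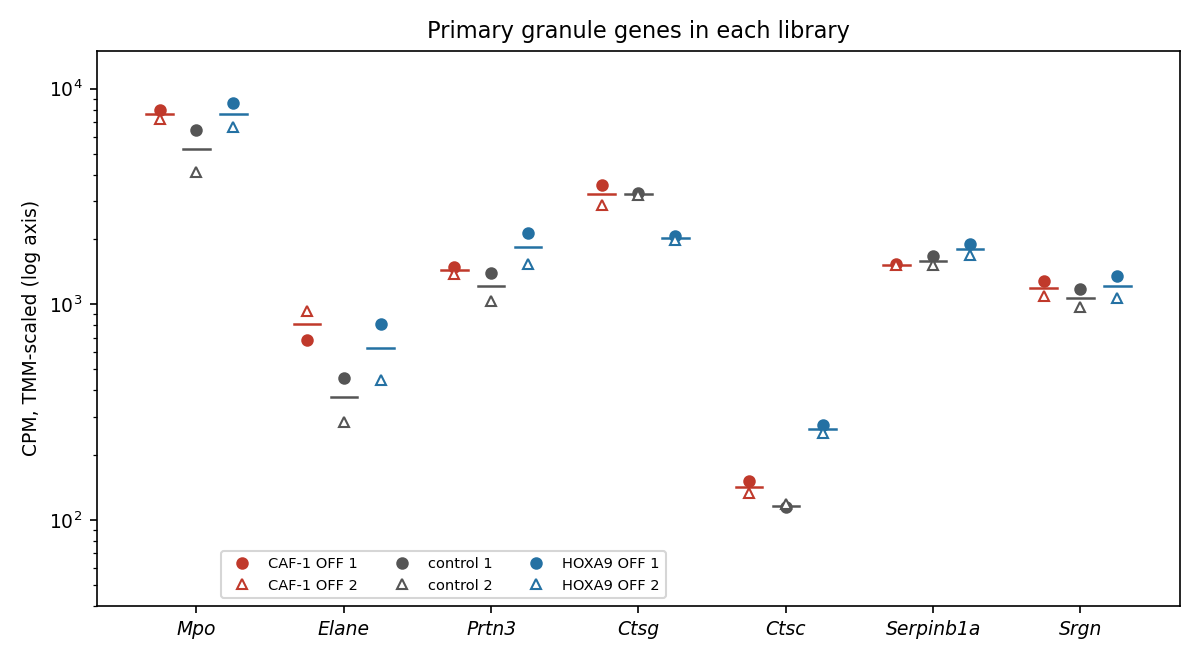
CPM of each member in each library on a log axis, with CAF-1 OFF in red, control in grey and HOXA9 OFF in blue; filled circles are replicate 1, open triangles replicate 2, and the bar is the mean. Ctsg is lower and Ctsc higher in both HOXA9 OFF libraries than in the other 4, while Elane is highest in CAF-1 OFF 2 at 929 CPM.

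Mpo (chromosome 11, 87607083 to 87617915, plus strand, mm9) had 6437 and 4109 CPM in the control libraries, 7928 and 7264 with CAF-1 OFF and 8546 and 6673 with HOXA9 OFF. Both induced groups lay above both controls without overlap, a pattern found in 20.1% of all genes for CAF-1 OFF and 35.1% for HOXA9 OFF. The controls themselves differed 1.57-fold. The log2 fold change was 0.53 ± 0.22 in CAF-1 OFF (edgeR FDR 0.453) and also 0.53 ± 0.22 in HOXA9 OFF (edgeR FDR 0.112). In the direct comparison it was -0.003 (95% interval -0.52 to 0.51), a range that leaves room for a change of up to 1.43-fold either way. Single libraries moved these values. Without control 1, Mpo was called higher in HOXA9 OFF, at 0.88 (edgeR FDR 0.0244), but without control 2 the value was 0.24 (edgeR FDR 0.413) and without HOXA9 OFF 1 it was 0.34 (edgeR FDR 0.408). For CAF-1 OFF against control it ran from 0.25 to 0.89 without a library. Gm11505, an antisense transcript, shares 512 bases of exon with Mpo and had 8 to 12 counts per library; the strand setting of the counting is not stated.

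Elane (chromosome 10, 79349057 to 79350961, plus strand) had 457 and 284 CPM in the control libraries, 683 and 929 with CAF-1 OFF and 809 and 447 with HOXA9 OFF. CAF-1 OFF lay above control without overlap, whereas the lower HOXA9 OFF library fell just under the higher control. Its log2 fold change in CAF-1 OFF, 1.12 ± 0.33, was the largest of any member there, with a 95% interval of 1.25-fold to 3.77-fold, yet it missed the cutoff (edgeR FDR 0.325). Over 14 alternative settings that FDR ran from 2.62e-05, with no filter on low counts, to 0.855. For HOXA9 OFF the log2 fold change was 0.76 ± 0.33 (edgeR FDR 0.131), and it was called with no filter on low counts (0.76, edgeR FDR 0.000696). It was also called without HOXA9 OFF 2, at 1.13 (edgeR FDR 0.0462), but without HOXA9 OFF 1 it was 0.27 (edgeR FDR 0.595) and without control 2 it was 0.46 (edgeR FDR 0.446). Elane did not differ past the threshold between CAF-1 OFF and HOXA9 OFF (0.36, 95% interval -0.43 to 1.15, edgeR FDR 0.452).

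Prtn3 (chromosome 10, 79337221 to 79345919, plus strand), the gene next to Elane with a gap of 3137 bases, had 1400 and 1041 CPM in the control libraries, 1496 and 1388 with CAF-1 OFF and 2134 and 1539 with HOXA9 OFF. Here HOXA9 OFF was the higher group and CAF-1 OFF overlapped control, whereas for Elane CAF-1 OFF had the higher mean. The log2 fold change of Prtn3 was 0.59 ± 0.19 in HOXA9 OFF (edgeR FDR 0.0610) and 0.24 ± 0.19 in CAF-1 OFF (edgeR FDR 0.719). Directly compared, CAF-1 OFF stood at -0.35 ± 0.19 against HOXA9 OFF (edgeR FDR 0.217), and at -0.08 without HOXA9 OFF 1. The value for HOXA9 OFF against control sat at the edge of the call. It was called higher by DESeq2 (FDR 0.0171) and by the edgeR exact test (FDR 0.0221), and without HOXA9 OFF 2 (0.81, edgeR FDR 0.0330). Without HOXA9 OFF 1 it was 0.33 (edgeR FDR 0.302) and without control 2 it was 0.39 (edgeR FDR 0.282). The FDR ran from 0.00119 to 0.302 over the 14 settings. Prtn3 shares 159 bases of exon with BC005764 on the opposite strand. BC005764 had 2661 to 6933 counts per library and was called lower in HOXA9 OFF, at -0.63 ± 0.14 on that scale (edgeR FDR 0.0180), where the value of Prtn3 was positive.

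The proximal promoters of Elane and Prtn3 both held GAGGAA followed by AACGGC, and those of Ctsg and Ctsc are shown beside them because these members were called in opposite directions. RefSeq sequence of GRCm38.p6 was used, a later build than that of the counts, and 7 promoter entries matched 6 of the members (Srgn has 2 entries). Each line gives the 150 bases up to the start site, 5′ to 3′ on the gene's strand, with matches in capitals.
Elane, chr10:79886162-79886311, plus strand: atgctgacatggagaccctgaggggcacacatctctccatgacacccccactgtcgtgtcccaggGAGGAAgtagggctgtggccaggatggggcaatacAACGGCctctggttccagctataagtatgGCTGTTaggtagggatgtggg
Prtn3, chr10:79879517-79879666, plus strand: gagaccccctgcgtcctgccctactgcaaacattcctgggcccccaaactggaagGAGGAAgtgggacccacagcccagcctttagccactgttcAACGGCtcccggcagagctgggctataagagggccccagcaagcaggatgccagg
Ctsg, chr14:56102575-56102724, minus strand: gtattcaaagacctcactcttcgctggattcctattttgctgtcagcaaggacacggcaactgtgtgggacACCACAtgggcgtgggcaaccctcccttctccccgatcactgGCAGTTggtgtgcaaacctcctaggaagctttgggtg
Ctsc, chr7:88277935-88278084, plus strand: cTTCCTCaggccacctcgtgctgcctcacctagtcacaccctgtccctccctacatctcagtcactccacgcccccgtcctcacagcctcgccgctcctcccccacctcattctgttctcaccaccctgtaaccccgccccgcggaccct
Letters were searched on both strands of the 300-base RefSeq windows, and no match overlapped another. The ETS-type letters GAGGAA were found in 5 of 7 member entries and in 28.3% of 32851 promoters. The MYB-type letters AACNGC were found in 4 of 7 against 35.9%, the RUNX-type letters TGTGGT in 2 of 7 against 16.8%, and the C/EBP-type letters TTGCNNAA in 0 of 7 against 10.8%. In Elane the GAGGAA match lies at -85 to -80 from the start site and the AACGGC match at -50 to -45; in Prtn3 they lie at -95 to -90 and -55 to -50. Elane alone of this pair has a further AACNGC match, read on the opposite strand as GCTGTT, at -21 to -16. Ctsg has its TGTGGT match, read on the opposite strand, at -79 to -74. It also has GAGGAA at -216 to -211, outside the bases printed, and an AACNGC match, read on the opposite strand as GCAGTT, at -37 to -32. GAGGAA followed by an AACNGC match was thus not particular to Elane and Prtn3. These are matches of letters and not measured binding, and the files hold no binding data.

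Ctsg (chromosome 14, 56718718 to 56721411, minus strand) had 3275 and 3213 CPM in the control libraries, 3592 and 2875 with CAF-1 OFF and 2077 and 1984 with HOXA9 OFF. Both HOXA9 OFF libraries lay far below the other 4, and the libraries of HOXA9 OFF and of control each agreed closely. With HOXA9 OFF, Ctsg fell, at a log2 fold change of -0.68 ± 0.12 (edgeR FDR 0.00778), and it was the single member with lower values there. In CAF-1 OFF it stood at the control level, with a log2 difference of -0.005 (95% interval -0.29 to 0.28, edgeR FDR 0.996). Directly compared, CAF-1 OFF exceeded HOXA9 OFF by 0.67 ± 0.12 (edgeR FDR 0.00838). That call, but not the direction, was lost without CAF-1 OFF 1 (0.50, edgeR FDR 0.0197), since the value then fell short of 1.5-fold.

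Ctsc (chromosome 7, 95426595 to 95459398, plus strand) had 114 and 118 CPM in the control libraries, 151 and 133 with CAF-1 OFF and 277 and 253 with HOXA9 OFF. The groups did not overlap, and they stood in the order control, CAF-1 OFF, HOXA9 OFF. The gene of this protease-activating enzyme rose 2.28-fold with HOXA9 OFF, a log2 value of 1.19 ± 0.11 (edgeR FDR 0.000986), which ranked 190th of 12460 genes by p. The value in CAF-1 OFF was 0.29 ± 0.11 (95% interval 1.02-fold to 1.46-fold, edgeR FDR 0.414), and set against HOXA9 OFF it was called lower, at -0.90 ± 0.11 (edgeR FDR 0.00234). Both calls of Ctsc held in all 14 alternative fits at this cutoff, with log2 fold changes of 1.11 to 1.25 in HOXA9 OFF against control. At a cutoff of 2-fold and an FDR under 0.01, the call against HOXA9 OFF was lost.

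Serpinb1a (chromosome 13, 32933961 to 32943054, minus strand) had 1671 and 1518 CPM in the control libraries, 1530 and 1519 with CAF-1 OFF and 1909 and 1695 with HOXA9 OFF. Libraries of one group differed by at most 1.13-fold for this protease inhibitor gene. Its log2 fold change was 0.18 ± 0.10 in HOXA9 OFF (95% interval 0.96-fold to 1.34-fold, edgeR FDR 0.235) and -0.06 ± 0.10 in CAF-1 OFF (edgeR FDR 0.868). The value between CAF-1 OFF and HOXA9 OFF was -0.24 ± 0.10 (edgeR FDR 0.119). Reads shared with the related copies Serpinb1b and Serpinb1c may be missing from these counts; each copy had at most 6 counts in any library.

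Srgn (chromosome 10, 61956581 to 61990199, minus strand) had 1172 and 972 CPM in the control libraries, 1281 and 1098 with CAF-1 OFF and 1351 and 1072 with HOXA9 OFF. The 3 groups overlapped one another. The log2 fold change of the granule proteoglycan was 0.15 ± 0.16 in CAF-1 OFF (95% interval 0.86-fold to 1.43-fold, edgeR FDR 0.781) and 0.18 ± 0.16 in HOXA9 OFF (0.87-fold to 1.46-fold, edgeR FDR 0.432). Changes larger than those bounds lie outside the intervals.

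**Figure D2:**
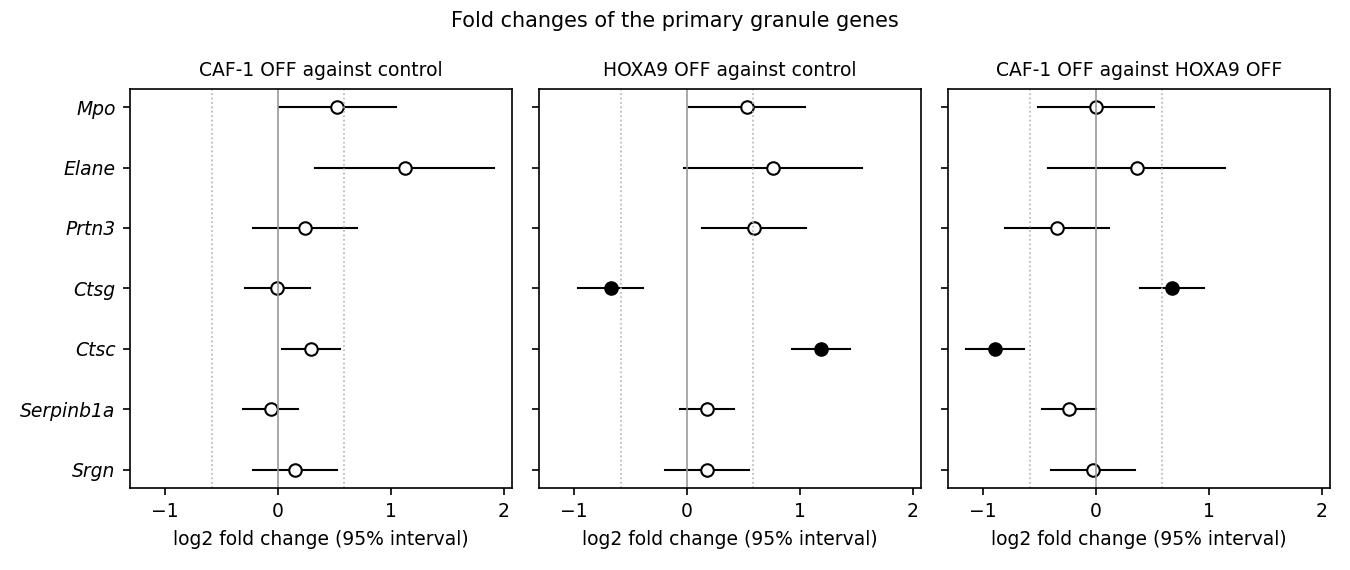
Log2 fold change of each member with its 95% interval from the edgeR fit, in 3 panels for the 3 comparisons; filled points passed the test, and dotted lines mark 1.5-fold. Ctsg and Ctsc are the filled points, at -0.68 and 1.19 in HOXA9 OFF against control and at 0.67 and -0.90 in CAF-1 OFF against HOXA9 OFF.

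Ratios of counts within a library need no scaling between libraries and were compared next, with no test. The pairs shown are a selection from all pairs of members, with no rule fixed beforehand, and their ratios restate the values above. For each Ctsc count there were 28.6 and 27.2 Ctsg counts in control and 23.8 and 21.6 in CAF-1 OFF, but only 7.51 and 7.84 in HOXA9 OFF. The protease and its activating enzyme thus changed their proportion in HOXA9 OFF whatever the normalization. Prtn3 counts per Ctsg count were 0.428 and 0.324 in control, 0.416 and 0.483 in CAF-1 OFF and 1.03 and 0.776 in HOXA9 OFF. Both HOXA9 OFF libraries lay above the other 4. These are counts and not transcript numbers, since the genes differ in length. Per kilobase of annotated exon, Ctsg at 1980 to 2073 lay above Prtn3 at 889 to 1232 in HOXA9 OFF. With the longest transcript as length, Prtn3 at 1501 to 2082 overlapped Ctsg there. The neighbours Elane and Prtn3 kept 0.326 and 0.273 Elane counts per Prtn3 count in control and 0.379 and 0.291 in HOXA9 OFF. In CAF-1 OFF the ratio was 0.457 and 0.670, above the other 4 libraries. Mpo counts per Elane count were 14.1 and 14.5 in control, 11.6 and 7.82 in CAF-1 OFF and 10.6 and 14.9 in HOXA9 OFF, with overlap between the induced groups.

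**Figure D3:**
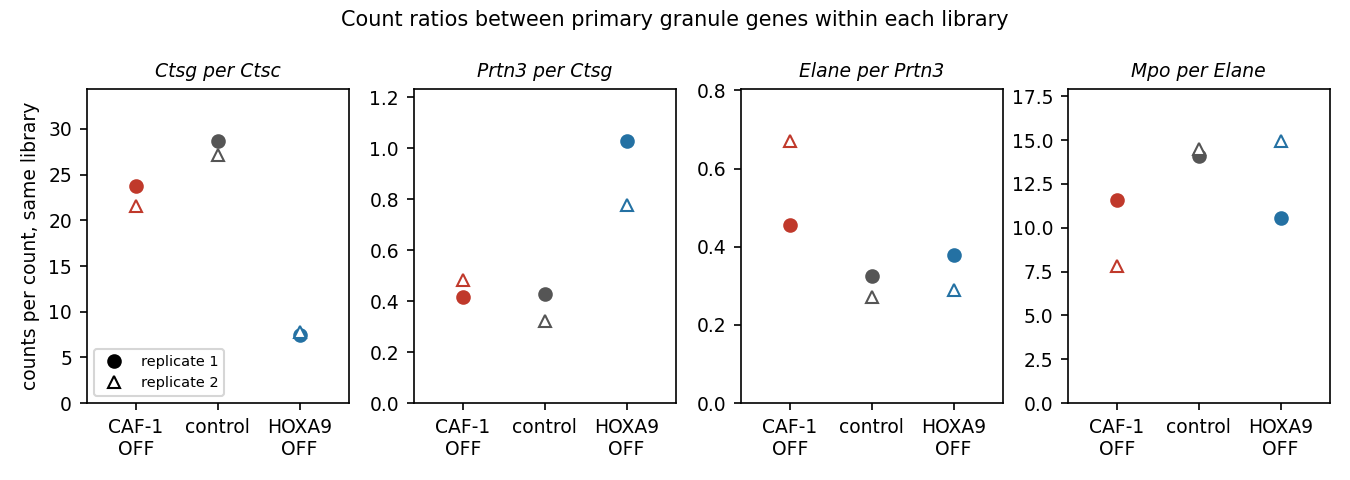
Counts of a member per count of another in the same library, on linear axes from 0, for 4 pairs; filled circles are replicate 1 and open triangles replicate 2 (red, CAF-1 OFF; grey, control; blue, HOXA9 OFF). Ctsg per Ctsc is 7.51 and 7.84 in HOXA9 OFF and at least 21.6 elsewhere, and Elane per Prtn3 is highest in CAF-1 OFF.

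The members did not share a single pattern. Over the 6 libraries, with each gene's log2 CPM centred on its mean, Serpinb1a and Srgn were the closest pair (distance 0.327) and Ctsg and Ctsc the farthest apart (2.00). Mpo lay nearest to Prtn3 (0.413), and Elane lay nearer to Mpo (0.802) than to its chromosomal neighbour Prtn3 (1.08). In control and HOXA9 OFF, the first library was the higher for Mpo, Elane, Prtn3, Ctsg, Serpinb1a and Srgn, so these distances also hold the variation between libraries of one group. Among 7553 genes with a mean of at least 20 CPM, Pmaip1 (0.241), BC017647 and Tuba4a followed Mpo most closely. Ccno (0.362), Far2 and Cstf2t were nearest to Elane, and Neurl3 (0.220), Rab31 and Unc119 to Prtn3. BC003965 (0.0853), Alg3 and 2310061I04Rik were nearest to Ctsg, and 1110002B05Rik (0.190), Ifngr2 and Hcls1 to Ctsc. Anubl1 (0.0503), Wasf2 and Suv420h2 were nearest to Serpinb1a, and Pts (0.0883), Bckdha and Ugcg to Srgn. Only 3 of these 21 genes were also among the closest by Pearson correlation, so the lists depend on the measure.

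Other granule genes gave a frame for the members. For this list and those that follow, the shares over all genes in HOXA9 OFF against control were 13% called higher and 8.97% lower. Between CAF-1 OFF and HOXA9 OFF they were 9.56% higher and 12.6% lower in CAF-1 OFF, and against control 0.0321% were called in CAF-1 OFF. In HOXA9 OFF, 14 of 18 tested relatives of the lysosome and granule were called higher and 0 lower, with a median log2 fold change of 1.40. Hp, which encodes haptoglobin, went from 92.7 and 51.3 CPM in control to 845 and 607 CPM (log2 fold change 3.33, edgeR FDR 0.000938). Fcnb, the gene for ficolin B, went from 36.5 and 23.5 to 219.5 and 130 CPM, and the glutathione transferase gene Mgst1 from 18.8 and 11.7 to 104 and 82.9 CPM. Lyz1 was called higher too, from 2 and 7 counts to 269 and 735 counts, but its reads are shared with the near-identical Lyz2 and its value is uncertain. In CAF-1 OFF, 0 of the 18 were called by edgeR (3 at an unadjusted p under 0.05), 2 each by DESeq2 and the exact test, and 3 of 20 by edgeR with no filter on low counts, all higher. Against HOXA9 OFF, 13 were lower in CAF-1 OFF and 0 higher, Igsf6 among them at -2.25 (edgeR FDR 0.00301).

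Genes of secondary and tertiary granules, which form after the primary granules, gave larger values. In HOXA9 OFF 14 of 15 were called higher, with a median log2 fold change of 3.89, and Hp is counted in this list and in the one before. Chi3l3, the gene for the chitinase-like protein Ym1, went from 15.8 and 5.63 to 2835 and 1569 CPM, Olfm4 from 0.825 and 0.871 to 109.5 and 109 CPM, and the cathelicidin gene Camp from 0.393 and 0.348 to 38.5 and 19.2 CPM. By contrast, the primary granule members had a median of 0.53 there and started from control means of 116 (Ctsc) to 5273 CPM (Mpo). In CAF-1 OFF, 0 of 15 were called by edgeR (6 at an unadjusted p under 0.05), 3 each by DESeq2 and the exact test, and 6 of 17 by edgeR with no filter, all higher, with 14 of 15 log2 values above 0 and a median of 0.98. Between CAF-1 OFF and HOXA9 OFF 14 were lower in CAF-1 OFF, the lactoferrin gene Ltf at -4.72 (edgeR FDR 0.00185), and Mmp8, the neutrophil collagenase gene, was called higher (332 and 630 against 56.6 and 62.0 CPM, edgeR FDR 0.00235).

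**Figure D4:**
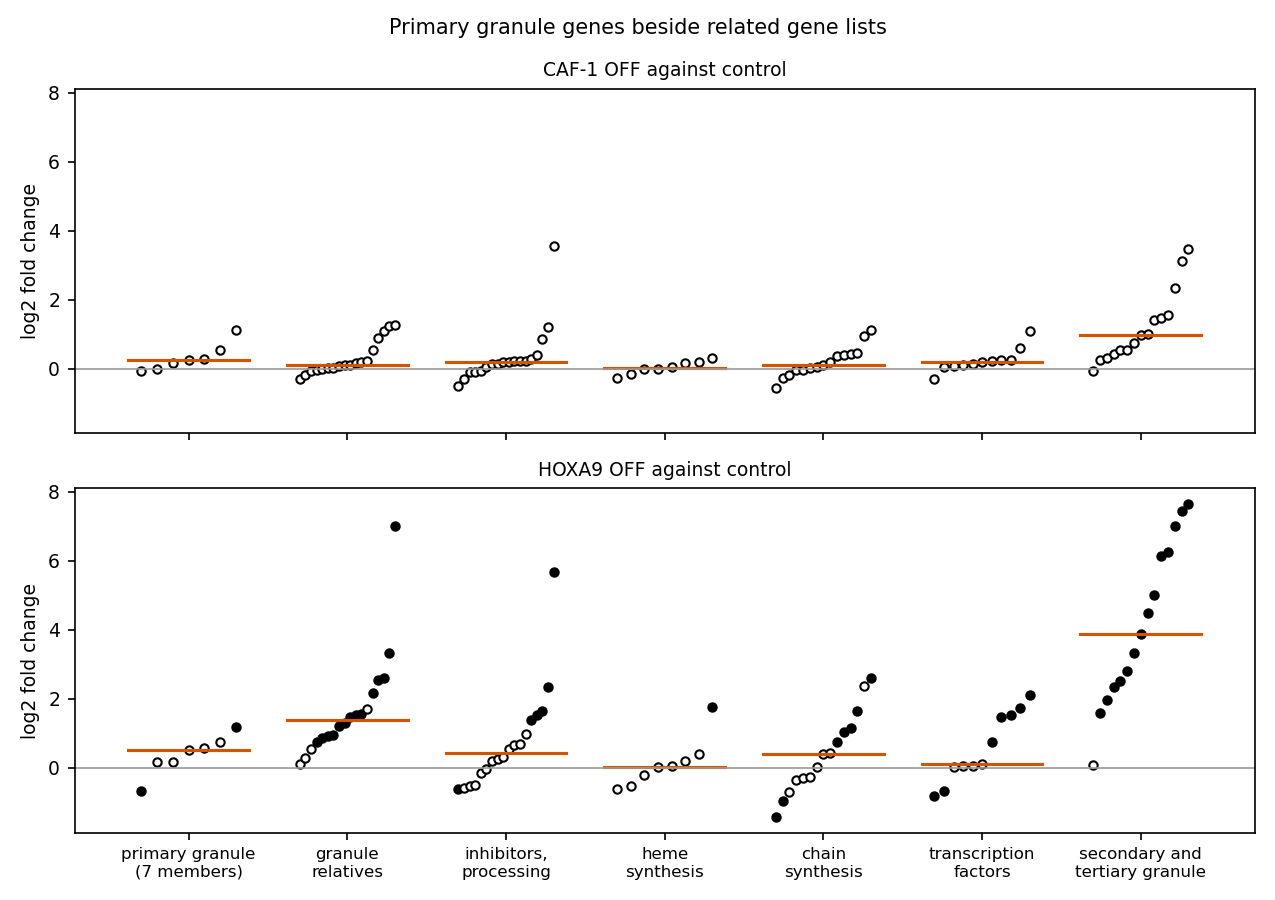
Log2 fold changes of each tested gene, by list, in CAF-1 OFF (top) and HOXA9 OFF (bottom) against the same control libraries; filled points passed the test and orange bars are list medians. The median is 0.53 for the 7 members and 3.89 for secondary and tertiary granule genes in HOXA9 OFF, and no point is filled in the CAF-1 OFF panel.

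Among inhibitors and processing genes, 5 of 18 were called higher in HOXA9 OFF and 1 lower (5 and 3 when scaled by library size alone). The lysosomal protease gene Ctss went from 0.707 and 1.63 to 43.6 and 71.4 CPM, and Furin, a proprotein convertase gene, from 40.3 and 35.1 to 115 and 105 CPM. Lyst, which acts in lysosome and granule trafficking, went from 21.9 and 12.0 to 93.8 and 78.4 CPM, and the cysteine protease inhibitor gene Cstb from 37.5 and 49.6 to 116 and 155 CPM. None of the 18 was called in CAF-1 OFF by edgeR (2 at an unadjusted p under 0.05), while DESeq2, the exact test and edgeR with no filter each called 2 higher. Against HOXA9 OFF, CAF-1 OFF was higher for 3 and lower for 4. Serpinb2, a serpin gene, was among the higher, at 7.07 and 5.72 CPM against 1.54 and 0.546 CPM (log2 2.58, edgeR FDR 0.0199). Of 8 heme synthesis genes, which make the cofactor of myeloperoxidase, Alas1, for the first enzyme of the pathway, was the 1 called in HOXA9 OFF, while scaling by library size alone gave 1 higher and 2 lower, and DESeq2, the exact test and the fit with no filter each gave 1 higher and 1 lower. It went from 231 and 141 to 721 and 547 CPM (log2 fold change 1.77, edgeR FDR 0.00331). In CAF-1 OFF 0 of 8 were called by edgeR with or without the filter, DESeq2 or the exact test (0 at an unadjusted p under 0.05), and against HOXA9 OFF 2 were higher, Alad (0.92, edgeR FDR 0.0152) and Cpox (0.70, edgeR FDR 0.00682), and Alas1 was lower.

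Enzymes for the glycosaminoglycan chains that serglycin carries moved in both directions. In HOXA9 OFF, 5 of 15 were called higher and 2 lower, beside 13% and 8.97% of all genes, while Srgn itself was not called. The chondroitin sulfotransferase genes Chst15 and Chst11 went from 3.30 and 2.21 to 21.6 and 12.4 CPM and from 59.9 and 39.1 to 157 and 154.5 CPM. Csgalnact2, which starts chondroitin chains, rose from 240 and 156 to 493 and 388 CPM, while Chsy1, a chain-extending synthase gene, fell from 122 and 128 to 48.3 and 44.8 CPM. In CAF-1 OFF 0 of 15 were called by edgeR (2 at an unadjusted p under 0.05) and 1 each by DESeq2, the exact test and edgeR with no filter, and against HOXA9 OFF 2 were higher and 5 lower. Csgalnact1, which acts like Csgalnact2, was higher there, at 70.1 and 47.5 against 11.5 and 16.6 CPM (log2 2.07, edgeR FDR 0.00230).

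Transcription factors known at primary granule promoters were called in both directions as well. In HOXA9 OFF, 5 of 11 were higher and 2 lower. Cebpd was at a log2 fold change of 2.12 (edgeR FDR 0.00229), while Cebpe went from 112 and 78.1 to 385 and 247 CPM, Sfpi1, which encodes PU.1, from 187 and 155 to 560 and 440 CPM, and Runx1 from 42.0 and 39.1 to 110 and 115 CPM. The genes called lower were Myb, a progenitor factor, and Gfi1, a transcriptional repressor that neutrophil development needs. Cebpa had a log2 fold change of 0.03 in HOXA9 OFF, which became -0.05 when scaled by library size alone. In CAF-1 OFF 0 of 11 were called by edgeR (2 at an unadjusted p under 0.05) and 1 each by DESeq2, the exact test and edgeR with no filter, and against HOXA9 OFF 2 were higher and 3 lower.

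Markers of other cell types also differed between the groups. Of eosinophil markers 4 of 4 were called higher in HOXA9 OFF, with their summed level at 4810 to 6646 CPM against 844 to 1219 CPM in control. Of monocyte and macrophage markers 7 of 8 were called higher, at 1904 to 2779 against 1093 to 1132 CPM in sum. Most of that sum was F13a1, the one not called, at 1160 and 2027 CPM in HOXA9 OFF and 1014 and 1017 CPM in control. Csf1r, the receptor gene for macrophage colony-stimulating factor, went from 4.05 and 4.24 to 215 and 292 CPM. Progenitor markers summed to 1130 to 1184 CPM in HOXA9 OFF against 2883 to 2965 CPM in control, with 4 called lower and 2 higher. Mast cell markers had 0 of 4 tested genes called in HOXA9 OFF by edgeR, DESeq2 or the exact test (0 at an unadjusted p under 0.05). With no filter on low counts edgeR called 1 of 7 higher. Of the 9 in the list the mast cell proteases Mcpt4 and Tpsab1 were at 0 in every library. Basophil markers had 1 of 3 called higher and megakaryocyte markers 2 of 5 higher. Erythroid markers had 0 of 2 called by edgeR, DESeq2 or the exact test (0 at an unadjusted p under 0.05), and lymphoid markers 1 of 2 lower. In CAF-1 OFF edgeR called 0 genes of these lists, although at an unadjusted p under 0.05 there were 3 megakaryocyte, 2 monocyte and 1 each of the mast cell, basophil and eosinophil genes. DESeq2 called 1 megakaryocyte and 1 monocyte gene higher, and the exact test 2 and 1. With no filter, edgeR called 3 megakaryocyte, 3 monocyte, 1 mast cell and 1 basophil gene higher. The summed levels in CAF-1 OFF lay above control without overlap for eosinophil markers (1380 to 1558 CPM), mast cell markers (186 to 483 against 134 to 173 CPM), basophil markers (45.2 to 113 against 34.9 to 39.3 CPM) and megakaryocyte markers (36.4 to 75.3 against 24.5 to 27.4 CPM). Of all tested genes taken singly, 20.1% lay above control without overlap in CAF-1 OFF. The mast cell sum was almost all Cpa3, at 468 and 178 CPM in CAF-1 OFF, and the basophil sum almost all Mcpt8, at 107 and 44.1 CPM. The other tested genes of these lists went both ways and had wide errors. Below 0 were the log2 values of Cma1 (-0.46 ± 0.74), Tpsb2 (-1.13 ± 1.14) and Prss34 (-0.04 ± 0.93). Above 0 were those of Ms4a2 (0.44 ± 0.44) and Cd200r3 (0.37 ± 0.41). The median was -0.01 for the mast cell list and 0.37 for the basophil list. Monocyte markers at 1079 to 1607 CPM overlapped control. The part of these cell types in the values of Ctsc and Ctsg was not tested.

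Genes beside the members on their chromosomes were compared as local context. Of 36 neighbours, 19 were tested. In HOXA9 OFF 1 was called higher and 4 lower, where 13% of all tested genes were called higher and 8.97% lower. The share of neighbours called was near that of all genes. In CAF-1 OFF 0 were called by edgeR (4 at an unadjusted p under 0.05), beside 0.0321% of all genes. Lpo, the lactoperoxidase gene 2015 bases from Mpo, was at 0.351 ± 0.004 CPM in control, 1.31 ± 0.303 with CAF-1 OFF and 1.90 ± 0.113 with HOXA9 OFF (SD, n = 2), a log2 value of 2.41 ± 0.42 for HOXA9 OFF against control (edgeR FDR 0.00738). On the other side of Mpo, Bzrap1 was called lower there, at -0.64 (edgeR FDR 0.0245). Ddx21 and Supv3l1 near Srgn were called lower too, at -0.61 and -0.78. Between CAF-1 OFF and HOXA9 OFF, 4 neighbours were called higher and 2 lower in CAF-1 OFF, where 9.56% of all genes were called higher and 12.6% lower. Mcpt8, the mast cell protease gene beside Ctsg, averaged 33.7 ± 1.54 CPM in control, 75.6 ± 44.6 with CAF-1 OFF and 23.5 ± 2.15 with HOXA9 OFF (SD, n = 2; log2 1.69 between the induced groups, edgeR FDR 0.0172). Rab38 beyond Ctsc was at 123 ± 29.5 CPM with CAF-1 OFF and 58.8 ± 8.46 with HOXA9 OFF (1.06, edgeR FDR 0.0205). The overlapping A430104N18Rik and Mir142 near Mpo were the ones called lower, at under 5 CPM in every group.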

How the data were processed

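Total RNA of 6 iGMP samples was made into libraries with a strand-specific kit. Per the labels, reads were aligned to mm9 (STAR) and assigned to genes (HTSeq-count), and the authors deposited unnormalized counts for each symbol. The annotation, strand setting and overlap mode of the counting are not given in the sources used here. Each file held 34199 symbols and 5 tally lines, and the lines (reads in no gene were 5.95 to 8.26 per 100 gene counts) were left out. The fit had 1 mean per group over 6 libraries in edgeR 4.0.16 (R 4.3.3, limma 3.58.1), with genes kept by filterByExpr, TMM scaling, quasi-likelihood tests and Benjamini-Hochberg adjustment over 12460 genes. A call needed at least 1.5-fold and an FDR under 0.05, as in the study's methods. SE (the log2 fold change over the square root of F) gave the 95% intervals, and the fit was tested on simulated data. DESeq2 1.42.0 and the edgeR exact test were alternatives, beside other scalings, filters, call cutoffs, sample sets and a replicate block. Libraries of a group differed beyond sampling noise (chi-square per degree of freedom at least 20.5), and floors of 3 counts cover counting error only. Coordinates and lengths came from GENCODE vM1 on NCBIM37 (mm9), and promoters from RefSeq on GRCm38.p6. Members, lists and the naming rule (members, Chaf1b, up to 4 largest called genes per list and comparison, called genes among the 3 neighbours on each side, and the 3 most alike genes) were chosen with earlier results of these data known. Cd3e, Ncr1, Myb, Cebpa, Tpsab1, Mcpt4, Mmp8, F13a1, Cpa3, Cma1, Tpsb2, Prss34, Ms4a2 and genes that overlap or copy a member were named outside that rule, after their values were seen. Cybb, which the rule names, is left out because 1 control library had 1 count. Most cell type markers are given as counts and sums only.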

Additional observations from a re-analysis of the deposited data

How the results depend on the processing

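The number of members called in CAF-1 OFF against control went from 0 to 1 (Elane) with no filter on low counts and with a crossed replicate block. In HOXA9 OFF against control it went from 2 to 4 with the crossed block, to 1 at 2-fold and an FDR under 0.01, and to between 2 and 4 without a library. For CAF-1 OFF against HOXA9 OFF it was 0 at 2-fold and an FDR under 0.01, and 1 to 2 without a library. The crossed block, which exchanges the CAF-1 OFF numbers, was chosen after seeing the data. The labels do not say that replicate numbers pair the samples, so the replicate block was kept as an alternative. Across genes, deviations of same-numbered libraries correlated at -0.18 for CAF-1 OFF and control and at 0.46 for HOXA9 OFF and control. For CAF-1 OFF and HOXA9 OFF the correlation was 0.03. Whether control and HOXA9 OFF libraries shared a replicate effect was not tested. A replicate block moved the members called in HOXA9 OFF from 2 to 3, adding Prtn3 (0.59, edgeR FDR 0.0174), and left the other counts at 0 and 2. With that block Mpo in HOXA9 OFF was at 0.55 (edgeR FDR 0.0298) and missed the call by its fold change. Chaf1b had a log2 fold change of -2.72 with the replicate block (edgeR FDR 0.0562), and -3.01 to -2.44 without a library, where the call was lost without CAF-1 OFF 2, control 1 or control 2.

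Of 294 alternative log2 fold changes of members, 22 changed sign, and none of these was called. Mpo between CAF-1 OFF and HOXA9 OFF was 0.0024 with DESeq2 size factors and with DESeq2, 0.076 with library size alone, 0.0077 with a mean of at least 5 CPM, 0.013 in the fit to 4 libraries and 0.012 with the replicate block, and -0.17 to 0.20 without a library. Ctsg in CAF-1 OFF against control was 0.0037 with DESeq2 size factors and with DESeq2, 0.0068 with a mean of at least 5 CPM, and -0.18 to 0.16 without a library. Srgn between CAF-1 OFF and HOXA9 OFF was 0.051 with library size alone and -0.19 to 0.16 without a library. Without a library, Elane between those groups was -0.0066 to 0.86, Serpinb1a in CAF-1 OFF -0.12 to 0.0093 and Srgn in HOXA9 OFF -0.0046 to 0.34. The cause of these differences was not tested. Over all genes, calls in CAF-1 OFF against control numbered 4, against 192 with DESeq2, 236 with the exact test, 378 of 19883 with no filter, 9 in the fit to 4 libraries, 2 with the replicate block, 71 with the crossed block and 0 to 10 without a library. Library size alone shifted the median of all genes in HOXA9 OFF by -0.08.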
